A study of Drosophila melanogaster with 8 samples.

Results

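The 7 genes described here, fit, CCHa2, upd2, ImpL2, Ilp6, daw and egr, encode secreted proteins through which the fat body and other tissues of the fly report the state of nutrition to the brain and the rest of the body. They were taken by symbol from the 17518 named genes of the count table, and all 7 were found there. The 7 genes were chosen by their role and with the fold changes between food and starvation in these same counts known. The values of that difference are therefore given for these 7 genes as a description, without a test. Tests are given for their receptors, for the pathways behind the receptors and for other secreted signals, 69 genes in all. These lists were also drawn up with earlier results known, so their counts are descriptions set beside those of all genes, and the adjusted p of a gene is that of the fit over all genes.

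RNA was taken from the heads of w1118 male flies, a white-eyed laboratory strain, after 1 day on food or under starvation. The flies were 1 to 3 d old, and each of the 4 samples per condition came from a group of 30 flies. All samples shared this genotype, and food was the control condition. Levels are given as CPM, the counts of a gene scaled to a common library total with the TMM factors of edgeR.

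The fat body of the fly does the work of liver and adipose tissue, and a part of it lies in the head around the brain. It stores fat, glycogen and protein, and it releases peptides that raise or lower insulin secretion, feeding and growth as the supply of sugar, fat and amino acids changes. The peptide CCHamide-2 and the leptin-like cytokine Upd2 are known to promote insulin release, FIT is known as a satiety signal for protein, and ImpL2 binds insulin-like peptides in the circulation.

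Libraries held between 47936038 and 53168449 counts, at which counting error was small for each of the 7 genes except upd2 and, under starvation, fit. Starvation replicate 3 stood apart from the other starvation libraries. Its 10 most abundant genes held 25.6% of all counts, where those of the other 7 libraries held 17.7% to 20.3%. Its deviations from the mean of the condition had a Spearman correlation of -0.57 with exonic length across genes, against 0.30 to 0.39 in the other starvation libraries. That mean included replicate 3, so the values of the other libraries partly mirror its own and are not independent. Values without starvation replicate 3 are given where they matter. The defining genes of neurons (elav, nSyb, brp, Syt1, Appl) and of photoreceptors (ninaE, trp, norpA, inaD) were abundant in each library, as the label head implies. Of 5 listed female markers, the egg shell genes Vm26Aa and Cp36 had at most 0.12 CPM in a library. Yp1 and Yp2 had at most 0.70 CPM, and Yp3 had 13.2 to 18.9 CPM. The male RNAs roX1 and roX2 summed to between 1537 and 2105 CPM.

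The signals of a fed state, fit and CCHa2, were far lower under starvation than on food, and Ilp6 was lower too. The remaining 4 genes, upd2, ImpL2, daw and egr, had levels in the starved libraries that overlapped those on food. None of the 7 had all of its starved libraries above its fed ones.

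fit lies at 21883924 to 21884454 of chromosome arm 3R (genome release 6), a gene of 531 bases for which RefSeq lists 1 mRNA. It encodes a small secreted protein of the fat body. On food, fit had 30.4, 30.7, 47.8 and 23.1 CPM in replicates 1 to 4, from 1104 to 2449 counts. Under starvation the counts were 20, 5, 0 and 2, or 0.401, 0.0958, 0 and 0.0391 CPM. The conditions were far apart, and the fed libraries themselves spanned a range of over 20 CPM, with food replicate 3 the highest and food replicate 4 the lowest. The mean was 33.0 ± 10.5 CPM on food and 0.134 ± 0.182 CPM under starvation (SD, n = 4), so that the starved mean was 0.406% of the fed one. The log2 fold change was -7.94 (standard error, SE, 0.48, 95% interval from -8.998 to -6.87). Most of the remaining starved counts came from starvation replicate 1, and without that library the log2 fold change was -9.41. It was -7.52 without starvation replicate 3, which held no count of fit.

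An antisense RNA gene, asRNA:CR45046, on 3R from 21878672 to 21884101, covers 178 of the 531 bases of fit. It had 499, 580, 826 and 504 counts on food and 27, 6, 7 and 10 under starvation, and its log2 fold change was -5.62 (SE 0.34, adjusted p = 1.6e-06). Both genes had their highest count in food replicate 3. The use of strand in counting is not given in the sources used here, so reads of the shared bases could have been counted for either gene. In starvation replicate 3 the antisense gene kept 7 counts while fit had 0.

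CCHa2, on 3R from 13389059 to 13395197, encodes the peptide CCHamide-2, which the gut and fat body release after feeding. Its fed libraries had 172, 141, 196 and 127 CPM. The starved ones had 17.7, 16.4, 19.5 and 14.3 CPM. No starved library came near a fed one, and the lowest starved count was still 729. The means were 159 ± 31.0 and 17.0 ± 2.20 CPM (SD, n = 4), and the log2 fold change was -3.23 (SE 0.15, 95% interval from -3.57 to -2.89), that is 9.39-fold lower. Over 16 other ways of processing the counts it stayed between -3.32 and -3.11. Unlike fit, whose starved mean was close to the limit of detection, CCHa2 kept 10.7% of its fed mean.

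Ilp6, on the X chromosome from 2331493 to 2334658, encodes the insulin-like peptide that is made mainly in the fat body, and in larvae it is known to rise when feeding ends. In these adult heads it had 26.8, 21.3, 23.5 and 21.1 CPM on food. Under starvation it had 15.1, 15.4, 13.1 and 12.6 CPM. The conditions did not overlap. The means of 23.2 ± 2.65 and 14.0 ± 1.40 CPM (SD, n = 4) differed by -0.72 on the log2 scale (SE 0.10, 95% interval from -0.95 to -0.49). This was 1.65-fold lower and thus under the 2-fold threshold of the study.

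ImpL2 (3L, 4224006 to 4236147) encodes a secreted immunoglobulin-domain protein that holds insulin-like peptides away from their receptor. Its fed libraries had 60.2, 52.8, 50.8 and 57.0 CPM, and its starved ones had 45.1, 55.6, 70.0 and 43.6 CPM. Starvation replicates 1 and 4 lay below the fed libraries and replicate 3 lay above them. The log2 fold change was -0.04 (SE 0.14, 95% interval from -0.35 to 0.26), and it was -0.20 without starvation replicate 3 and 0.08 with upper-quartile scaling. The coefficient of variation was 7.68% on food and 22.7% under starvation.

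daw (2L, 2805261 to 2812376) encodes Dawdle, an activin-like ligand by which the fat body and muscle act on metabolism and digestion. It had 21.3, 18.8, 18.3 and 17.0 CPM on food, and 16.7, 21.7, 18.7 and 13.7 CPM under starvation. Starvation replicate 2 was above all fed libraries, and replicates 1 and 4 were below them. The log2 fold change was -0.09 (SE 0.13, 95% interval from -0.39 to 0.20), and it ran from -0.20 without starvation replicate 2 to 0.04 without starvation replicate 4.

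egr (2R, 10078366 to 10084210) encodes Eiger, the tumour necrosis factor of the fly, which in larvae is known to pass from the fat body to the insulin-producing cells when protein is scarce. It had 26.8, 30.8, 26.4 and 27.0 CPM on food. Under starvation it had 21.8, 24.1, 26.7 and 23.0 CPM. Only starvation replicate 3 reached into the fed range. The log2 fold change was -0.22 (SE 0.08, 95% interval from -0.40 to -0.03), -0.27 without starvation replicate 3 and -0.10 with upper-quartile scaling.

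upd2 (X, 18240654 to 18243284) encodes the cytokine that stands in for leptin in the fly. It had 4, 6, 6 and 16 counts on food and 7, 14, 6 and 8 under starvation, or between 0.0864 and 0.334 CPM over all libraries. The conditions overlapped throughout, and the gene did not pass the filter on low counts. Fitted without that filter, its log2 fold change was 0.07 (SE 0.57, 95% interval from -1.15 to 1.30). It was 0.67 without food replicate 4 and -0.23 without starvation replicate 2, so a difference of 2-fold in either direction would not have been detectable at this depth.

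**Figure D1:**
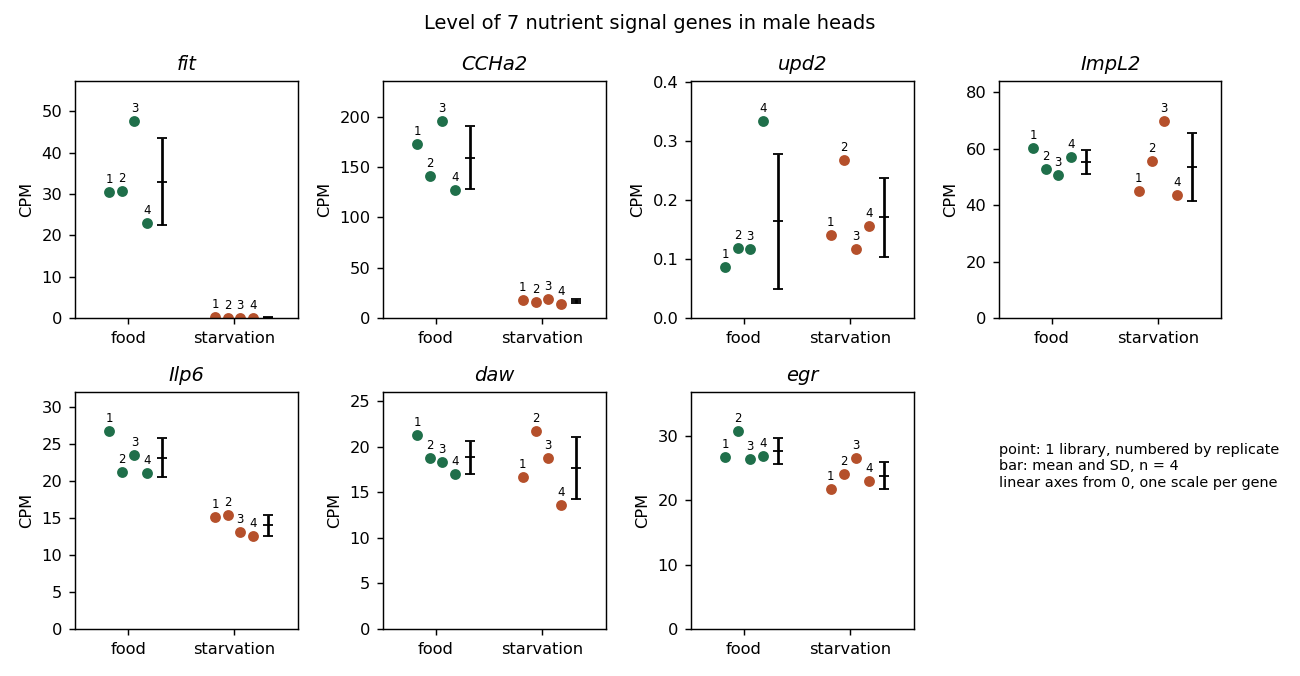
Level of each gene in CPM (vertical axis, linear from 0, one scale per gene) in the 4 food and 4 starvation libraries; points are single libraries numbered by replicate and bars are the mean and SD. The starved points of fit and CCHa2 lie far below the fed points, those of Ilp6 lie just below them, and those of upd2, ImpL2, daw and egr overlap them.

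Of the 7 genes, 6 passed the filter on low counts, and 2 of these 6 (fit and CCHa2) were past both thresholds of the study in the lower direction, an adjusted p under 0.05 and a 2-fold change, where 5.37% of the 12048 genes tested were, and 6.30% in either direction. With the adjusted p alone the count was 3, against 16.7% of all genes, and it was 4 without starvation replicate 3, when egr was added (21.6% of all genes in that fit). The libraries of the conditions did not overlap for 3 of the 6, with the starved ones lower, as in 18.6% of all genes (31.2% in either direction). Because the set was drawn up with this difference known, nothing is read from these counts. The calls by adjusted p were 3 or 4 in each of 16 alternatives, and nothing is read from that range either. Among these alternatives a share of all genes is given only for the fit without starvation replicate 3.

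Levels of different genes were compared per kilobase of exonic length. On food CCHa2 was first with 109 ± 21.3 CPM per kilobase (SD, n = 4), ahead of fit with 62.2 ± 19.7. The ranges of these 2 genes met, with 87.0 as the lowest value of CCHa2 and 90.0 as the highest of fit. ImpL2 followed with 20.7 ± 1.59, then egr with 12.8 ± 0.943, Ilp6 with 9.60 ± 1.10, daw with 5.78 ± 0.550 and upd2 with 0.0828 ± 0.0578. Among these lower 5 genes neighbours in the order did not overlap.
Under starvation the order was changed, with ImpL2 first at 20.1 ± 4.57 CPM per kilobase. CCHa2 (11.6 ± 1.51) and egr (11.0 ± 0.966) came next and differed by less than their spread. Ilp6 (5.82 ± 0.582) and daw (5.42 ± 1.04) also overlapped. fit (0.252 ± 0.343) and upd2 (0.0861 ± 0.0338) came last and overlapped. In terms of all genes tested, fit went from above 91.3% of them on food to above 4.93% under starvation, and CCHa2 from 94.7% to 59.6%.

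Replicates of a condition varied unequally. On food the coefficient of variation was 31.7% for fit and 19.5% for CCHa2, but 11.4% for Ilp6, 9.51% for daw, 7.68% for ImpL2 and 7.36% for egr. Both fit and CCHa2 were highest in food replicate 3 and lowest in food replicate 4, by 2.07 and 1.54 times. The same order of these libraries was seen in 15.3% of the 10437 genes tested with at least 1 CPM on food, and in 8 of 11 fat body markers at that level, among them Lsp2 (1.95 times) and FASN1 (1.55 times). It was seen in 4 of 15 other secreted signals and in 0 of 5 hemocyte markers. The 5 hemocyte markers were highest in food replicate 2, but they too were lowest in food replicate 4. Their level in food replicate 3 was 1.32 (He) to 2.20 (Hml) times that in food replicate 4. The order was noticed in these data and is given as a description.

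Markers of several cell types were also lower under starvation, as fit, CCHa2 and Ilp6 were. Of 13 fat body markers 12 were tested, 8 were lower at an adjusted p under 0.05 and 6 of these were lower by at least 2-fold. Over all genes tested 16.7% and 5.37% were. The median log2 fold change of the tested fat body markers was -0.95 against -0.01 for all genes tested. Their summed level was 7883 to 12489 CPM on food and 2051 to 3102 CPM under starvation. Lsp2, a storage protein of the fat body, fell by 8.03 on the log2 scale, and apolpp, which encodes the main lipoprotein of the blood, fell by 2.80. The GATA factor gene srp, which defines fat body and blood cells, fell by 1.23. The marker Desat1 (-0.27) and the gluconeogenic Pepck1 (0.02) did not pass. The larval markers Fbp1 and Fbp2 had less than 0.25 CPM in each library.
All 5 hemocyte markers were lower at an adjusted p under 0.05, where 16.7% of all genes were. Their median was -2.16, and their summed level was 72.5 to 210 CPM on food and 10.3 to 51.2 CPM under starvation. All 3 tested oenocyte markers of 4 listed were lower at that threshold (median -1.52), against 16.7% of all genes, though eloF had only 14 to 24 counts on food. Fad2, the fourth, did not pass the filter, with 6, 10, 2 and 6 counts on food and 0 in each starved library. All 4 glial markers were lower (median -0.56), against 16.7% of all genes, whereas the 5 neuronal markers did not pass, at a median of -0.06. Some other markers were higher. Of 4 photoreceptor markers only trp passed, at 0.28 on the log2 scale (adjusted p = 0.038), where 10% of all genes were higher. ninaE, at 0.29, did not pass although its libraries did not overlap, and neither did inaD (0.27) or norpA (-0.13). The male RNAs roX1 (0.35, adjusted p = 0.016) and roX2 (0.50, adjusted p = 0.0022) rose as well. None of the 4 muscle markers passed (Mhc -0.42, Act88F -0.25, up 0.10 and wupA 0.18). Without starvation replicate 3, 1 neuronal and 2 photoreceptor markers were higher, where 15.9% of all genes were. In whole heads fewer fat body cells and less RNA per cell cannot be told apart. The part of these markers' changes in the levels of the 7 signals was not tested.

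**Figure D2:**
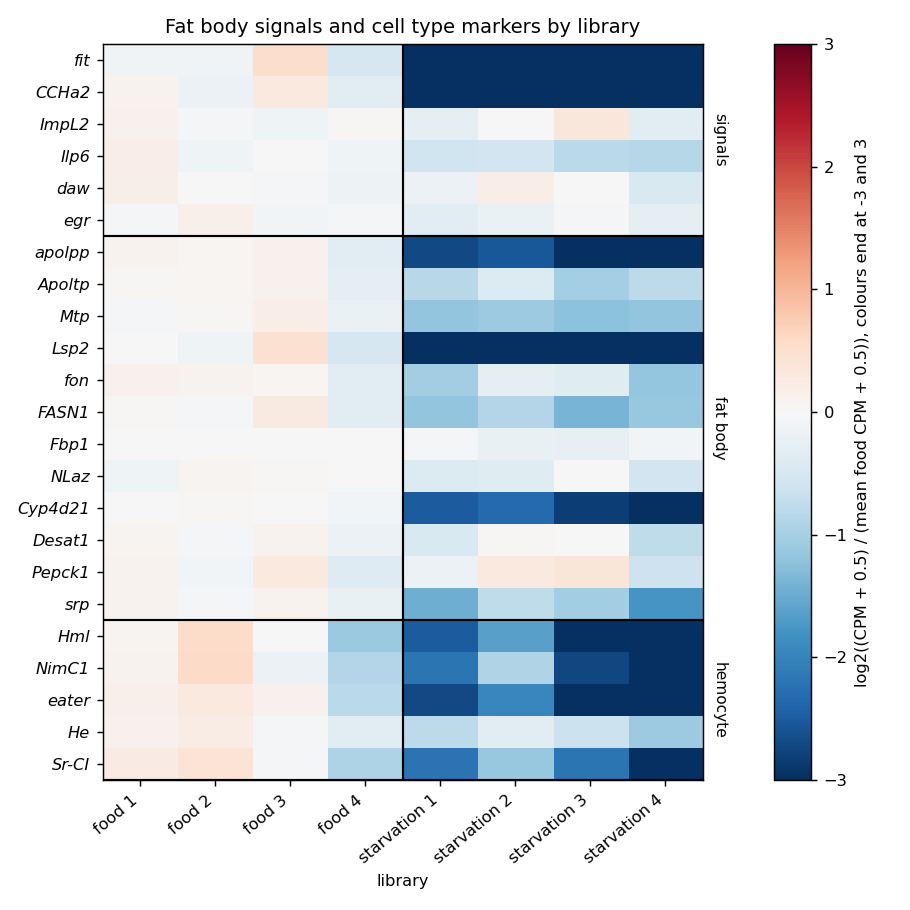
Change of each gene (rows) in each library (columns) relative to the mean of the food libraries, as log2((CPM + 0.5) / (mean food CPM + 0.5)) with colours ending at -3 and 3; the 6 signals that passed the filter stand above the tested markers of fat body and hemocytes. Lsp2 is as dark as fit and CCHa2 under starvation, because changes beyond -3 share the end colour. apolpp and Cyp4d21 are nearly as dark, while Desat1 and Pepck1 stay pale, as ImpL2 and daw do.

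The next question was whether the receptors of these signals differed between conditions. Of 9 receptor genes, which were all tested, 1 was higher at an adjusted p under 0.05 and 3 were lower, and over all genes 10% were higher and 16.7% lower (Benjamini-Hochberg adjusted p from the quasi-likelihood test of edgeR).
InR, the receptor of the insulin-like peptides, rose from 33.2, 33.1, 31.9 and 32.6 CPM on food to 85.4, 111, 67.9 and 94.3 CPM under starvation. Even its lowest starved library had more than 2 times the level of the highest fed one. The log2 fold change was 1.46 (SE 0.13, adjusted p = 1.7e-05), while the ligand gene Ilp6 was lower.
CCHa2-R, by which brain insulin-producing cells respond to CCHamide-2, did not pass. It had 4.30, 5.02, 5.25 and 5.12 CPM on food and 4.19, 5.57, 4.58 and 5.16 CPM under starvation. The difference of -0.01 had a 95% interval from -0.28 to 0.26.
For the cytokine Upd2, the receptor gene dome did not pass at -0.05 (SE 0.12). The gene et, which encodes a shorter relative of the receptor that dampens signalling, fell from 8.38 ± 1.49 to 3.67 ± 0.955 CPM (SD, n = 4), and the log2 fold change was -1.19 (SE 0.19, adjusted p = 8.7e-04).
Both receptors of Eiger were lower by less than 2-fold. grnd, the higher-affinity one, had 24.5, 23.0, 21.3 and 22.3 CPM on food and 17.7, 17.6, 17.5 and 17.0 CPM under starvation, and its starved libraries were almost alike. Its log2 fold change was -0.38 (SE 0.07, adjusted p = 0.0022), and that of wgn was -0.50 (SE 0.11, adjusted p = 0.0073).
The activin receptor genes babo (0.18), put (0.14) and wit (0.16), which serve Dawdle and its relatives, did not pass in the edgeR test with TMM factors. With all 8 libraries all 3 passed with DESeq2 (adjusted p from 0.038 to 0.047) and with upper-quartile factors (from 0.0083 to 0.010). Without starvation replicate 3 they also passed, at 0.24, 0.17 and 0.21 with adjusted p-values of 0.0027, 0.015 and 0.0056, and 4 of the 9 receptors were then higher, against 15.9% of all genes.

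**Figure D3:**
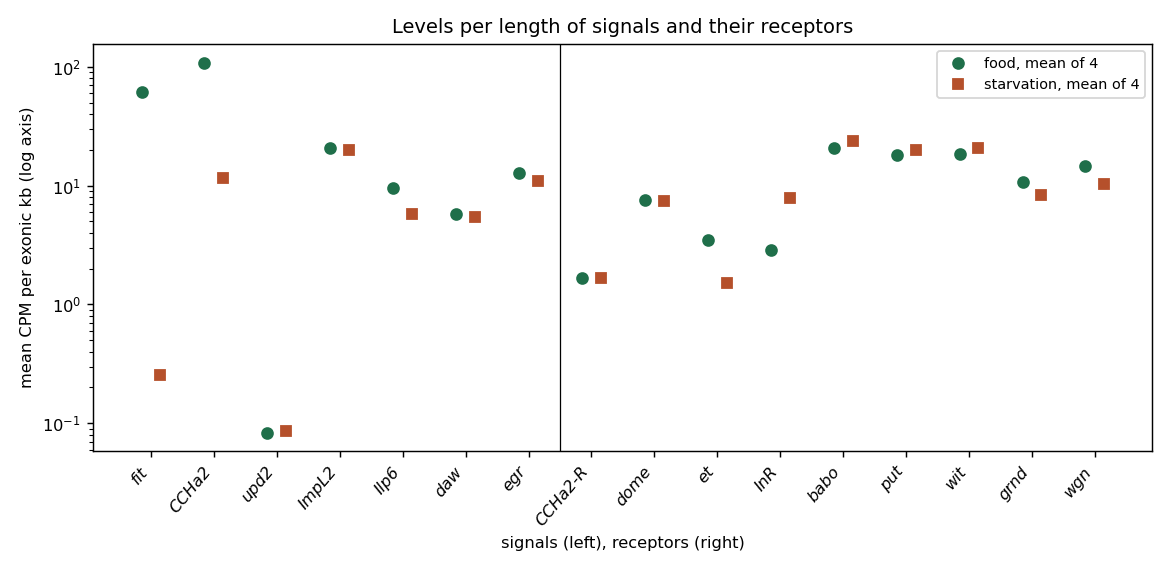
Mean level per kilobase of exonic length (vertical axis, log scale, CPM per kilobase) of the 7 signals and of 9 receptor genes on food (circles) and under starvation (squares), each a mean of 4 libraries. CCHa2 and fit go from 109 and 62.2 to 11.6 and 0.252, InR goes from 2.88 to 7.89, and CCHa2-R stays at 1.68 and 1.66.

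A list of 18 other secreted signals of nutrition was read in the same way, of which 16 passed the filter. At an adjusted p under 0.05, 4 were lower and 1 was higher, where 16.7% and 10% of all genes were, and 11 did not pass. With the 2-fold threshold 3 were lower and 1 was higher, where 5.37% and 0.930% of all genes were.
Lst encodes limostatin, a hormone known to be released in fasting and to suppress insulin secretion. It rose from 20.9, 17.99, 17.9 and 17.6 CPM on food to 47.8, 73.7, 78.0 and 40.5 CPM under starvation. All starved libraries were above all fed ones (log2 fold change 1.69, SE 0.19, adjusted p = 9.3e-05).
The growth-blocking peptides are cytokine-like hormones of the fat body that respond to amino acids in larvae. Gbp2 fell from 116, 113, 145 and 85.2 to 40.3, 68.6, 69.5 and 31.0 CPM (log2 fold change -1.13, SE 0.25, adjusted p = 0.0068, and under 2-fold without starvation replicate 4 at -0.91, starvation replicate 1 at -0.99 or food replicate 3 at -0.997). Gbp3 fell from 28.6, 25.7, 31.4 and 20.5 to 8.45, 10.8, 11.2 and 5.05 CPM (-1.58, SE 0.22, adjusted p = 3.9e-04). In both genes food replicate 3 was the highest and food replicate 4 the lowest of the fed libraries, as for fit and CCHa2. Gbp1, which lies 336 bases from Gbp2 on 2R, did not pass and had 17.8 ± 2.34 CPM on food and 21.1 ± 6.28 CPM under starvation (SD, n = 4). Their receptor gene mthl10 rose by 0.38 (log2, SE 0.08, adjusted p = 0.0058).
Ilp5, an insulin gene of the brain, fell by 1.65 on the log2 scale, whereas Ilp2 (-0.21) and Ilp3 (-0.05) did not pass. The activin-like gene myo fell by 0.37 (SE 0.10, adjusted p = 0.019), with an adjusted p of 0.051 without food replicate 1 and 0.062 without food replicate 2, and its relatives Actbeta (0.16) and gbb (-0.06) did not pass. CCHa1, the relative of CCHa2 that lies 697306 bases away on 3R, had 4.23 ± 0.273 CPM on food and 5.10 ± 0.867 CPM under starvation (SD, n = 4), and its difference of 0.27 did not pass (95% interval from -0.03 to 0.57). The gene sun, whose product stunted is released by the fat body, did not pass at -0.07 with all libraries and passed at -0.23 without starvation replicate 3 (adjusted p = 0.0098). Actbeta (0.24), sNPF (0.15) and Ilp2 (-0.32) also passed without it, and Actbeta passed with all libraries under upper-quartile factors (0.27, adjusted p = 0.030). The peptide genes Akh (0.19), NPF (0.27), Tk (0.19) and sNPF (0.10) did not pass with TMM factors, and Tk passed with upper-quartile factors (0.30, adjusted p = 0.044).
The cytokine genes upd1 and upd3 lie 62069 and 33948 bases from upd2 on the X chromosome. They were too low to be tested, with 0 to 9 counts of upd1 and 0 to 18 counts of upd3 in a library. The counts of upd3 were 10, 2, 0 and 2 on food and 16, 18, 8 and 10 under starvation, and the CPM of the conditions overlapped (exact two-sided permutation test, p = 0.0857). Without starvation replicate 3 upd3 passed the filter, at 1.96 (adjusted p = 0.061).

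**Figure D4:**
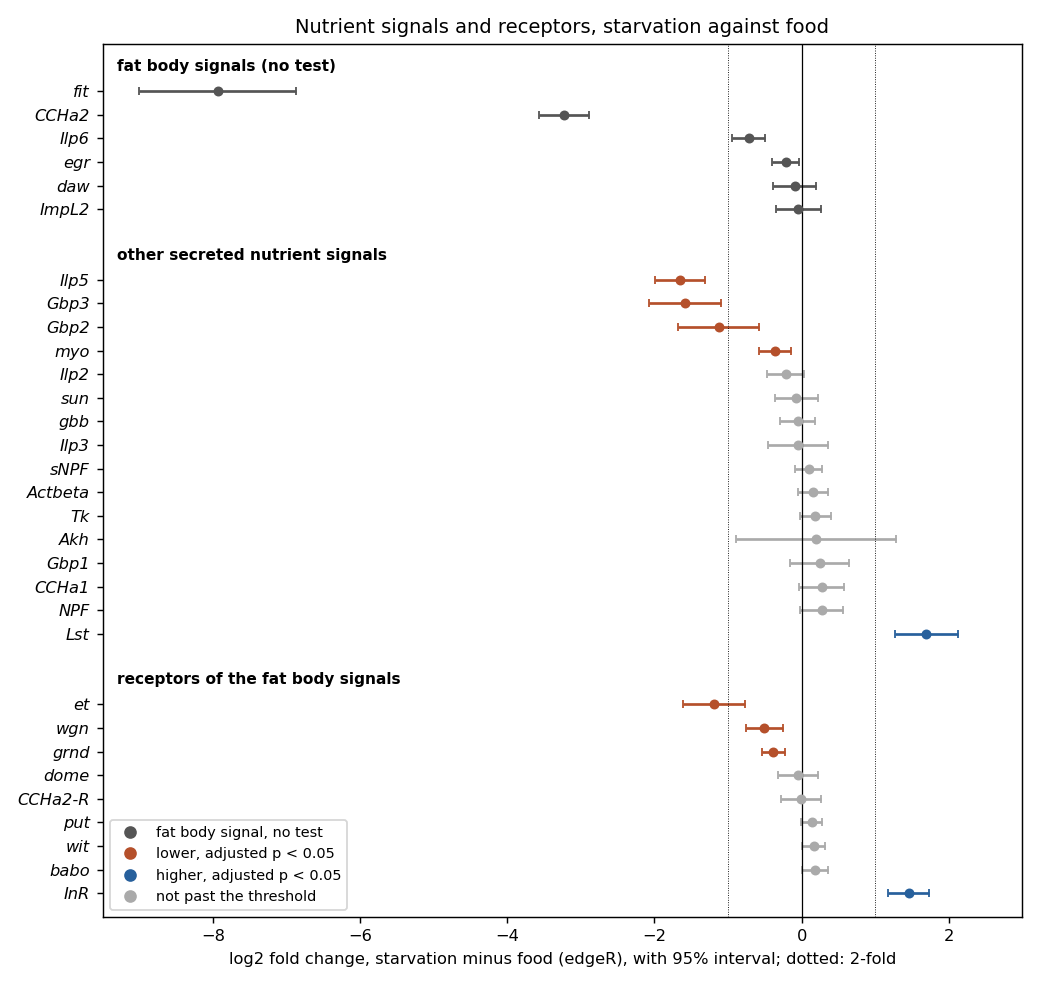
Log2 fold change of starvation against food (horizontal axis, with 95% intervals from edgeR) for the 6 signals that passed the filter, 16 other secreted signals and 9 receptors; dotted lines mark 2-fold. fit and CCHa2 stand farthest to the left at -7.94 and -3.23, Lst and InR stand alone to the right of 2-fold at 1.69 and 1.46, and most other genes lie near 0.

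Behind the receptors, 3 of 10 genes of insulin binding and response were lower and 3 were higher at an adjusted p under 0.05, where 16.7% and 10% of all genes were. Thor, which encodes the translation inhibitor 4E-BP and is a known target of FoxO, rose from 66.6 ± 7.38 to 407 ± 119 CPM (SD, n = 4), or 6.11-fold (log2 fold change 2.61, adjusted p = 5.2e-06). The adaptor genes chico (0.64) and Lnk (0.55) also rose, and foxo itself (0.04) did not pass. The genes of other proteins that bind insulin-like peptides in the circulation fell. These were conv (log2 fold change -1.12, SE 0.13, adjusted p = 9.0e-05), the fly form of the acid-labile subunit, and the decoy receptor gene Sdr (-0.48, SE 0.07, adjusted p = 6.6e-04). Pi3K21B, the regulatory subunit of PI3 kinase, fell by 0.33 (adjusted p = 0.016, and 0.054 without food replicate 1 or with upper-quartile factors). Of the 10 genes of this list, 3 were lower and 5 higher without starvation replicate 3, against 21.6% and 15.9% of all genes.
In the JAK/STAT pathway, which Upd2 activates, Stat92E fell from 280 ± 17.1 to 193 ± 11.6 CPM (SD, n = 4), and the log2 fold change was -0.54 (adjusted p = 7.2e-04), and the inhibitor gene Socs36E rose by 0.30 (adjusted p = 0.019, with 0.056 without food replicate 1 and 0.062 without food replicate 3). The repressor gene ken fell by 0.41 (adjusted p = 0.033), which did not hold without food replicate 1, 2 or 4, without starvation replicate 1 or with upper-quartile factors (adjusted p from 0.061 to 0.11). The other 7 of 10 genes did not pass, so 2 were lower and 1 was higher, where 16.7% and 10% of all genes were. TotA, a stress peptide gene, ranged from 214 to 675 CPM on food and from 8.16 to 266 CPM under starvation, and its difference of -1.75 (SE 0.80) lay within that spread (adjusted p = 0.14). Without starvation replicate 3 TotA passed at -2.69 (adjusted p = 0.019). In that fit 3 of the 10 genes were lower and 3 were higher, against 21.6% and 15.9% of all genes.
In the Eiger branch 3 of 10 genes were higher, against 10% of all genes. They were Tace (0.35), the protease that sheds Eiger, puc (0.29), a feedback phosphatase of the JNK pathway, and Jra (0.29), the Jun gene. The call of Jra (adjusted p = 0.041) was lost in 8 of 16 alternatives, among them those without any 1 of the food replicates or without starvation replicate 2 or 4 (adjusted p from 0.077 to 0.11). In the Eiger branch 4 of the 10 genes were higher without starvation replicate 3, against 15.9% of all genes. Of the 5 tested genes of the activin branch only sog, a secreted antagonist of related ligands, passed, at -0.62 (adjusted p = 0.013), where 16.7% of all genes were lower. Without starvation replicate 3, 3 of the 5 were higher, against 15.9% of all genes. They were Smox (0.20, adjusted p = 0.014), the Smad through which Dawdle acts, Mad (0.18, adjusted p = 0.022), the Smad of the related BMP ligands, and Smurf (0.16, adjusted p = 0.016), a ubiquitin ligase of the pathway. Mad also passed with all libraries under RLE and upper-quartile factors, with DESeq2 and without the 10 most abundant genes (adjusted p from 0.0059 to 0.044).
AkhR, the receptor of the adipokinetic hormone on fat body, fell by 1.08 (SE 0.16, adjusted p = 4.9e-04), and by less than 2-fold without starvation replicate 4 (0.91), without food replicate 3 (0.99) or with upper-quartile factors (0.96). AkhR and mthl10 are from a list of 6 receptors of the other signals. Of these 1 was lower and 1 higher, against 16.7% and 10% of all genes. The other 4, CCHa1-R (-0.06), mth (-0.30), sax (0.17) and tkv (0.12), did not pass. Among the 16 alternatives, sax passed in 5, tkv in 2 and mth in 1. The list had 1 lower and 3 higher without starvation replicate 3, against 21.6% and 15.9% of all genes.
Of the 66 tested genes of all these lists, 14 (21.2%) were lower and 10 (15.2%) higher at an adjusted p under 0.05, against 16.7% and 10% of all genes. With the 2-fold threshold 6 (9.09%) were lower and 3 (4.55%) higher, against 5.37% and 0.930%. Without starvation replicate 3 the counts were 17 lower and 25 higher of 67, against 21.6% and 15.9%. With the 2-fold threshold 7 were then lower and 3 higher, against 5.82% and 0.819%. With upper-quartile scaling, which moved the median of all genes to 0.10, there were 12 lower and 23 higher at an adjusted p under 0.05. The share of all genes at that threshold is not given for this scaling.

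The nearest tested genes on either side of each of the 7 genes were looked at for changes in the same region. Of these 14 neighbours, 4 were lower at an adjusted p under 0.05, where 16.7% of all genes were. The largest difference was that of dnd, 1221 bases beyond fit, which fell from 10.4 to 4.26 CPM in the mean (log2 fold change -1.29, SE 0.10, adjusted p = 6.9e-06). On the other side of fit, P5CDh2 did not pass at -0.08. CG14377, 2637 bases beyond CCHa2, fell by 0.56 (adjusted p = 0.0079), while CG9799, 349 bases before it, did not pass at 0.13. Neither neighbour of Ilp6 passed. The remaining lower neighbours lay beside genes whose conditions overlapped. These were asRNA:CR45738 beside ImpL2 (-0.46, adjusted p = 0.0325) and CG1371 beside egr (-0.30, adjusted p = 0.0198).

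The genes most like each signal were taken by Pearson's r of log2(CPM + 0.5) over the 8 libraries, among 10416 other genes with at least 1 CPM in the mean. For fit these were Lsp1beta, a storage protein gene (r = 0.999, from 135 ± 52.4 to 0.857 ± 0.463 CPM), and its own antisense RNA (r = 0.999). CCHa2 was matched by CG34056 (r = 0.998) and CG12224 (r = 0.998), whose log2 fold changes were -0.97 and -1.78. For Ilp6 they were asRNA:CR45396 (r = 0.991) and CG11999 (r = 0.989), for ImpL2 Crg-1 (r = 0.960) and RpII33 (r = 0.941), for daw CG5849 (r = 0.965) and snoRNA:Or-CD2 (r = 0.955), and for egr GstE10 (r = 0.970) and CG3792. These are descriptions over 8 points that share libraries, and for fit, CCHa2 and Ilp6 the points form 1 cluster per condition. With deviations from the means of the conditions instead, none of these pairs was found again except that of daw with CG5849.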

How the data were processed

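The authors mapped paired-end poly(A)+ reads with STAR 2.6.1b, counted them per gene with ASpli and deposited the counts without normalizing them. The same table gave positions and exonic lengths. One row without a gene name, at most 0.0054% of a library, was left out. Samples were grouped by their labels.

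Counts were tested with edgeR 4.0.16 (R 4.3.3): TMM factors, filterByExpr (12048 genes kept), the quasi-likelihood test and Benjamini-Hochberg adjustment over all genes tested. An SE is the absolute log2 fold change divided by the root of F. Unless stated, p-values in the text come from this test. No pair of replicates differed by less than the sampling noise. Whether samples came from separate cultures is not stated beyond biological replicates.

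Members and lists were chosen with earlier results of these data known. Named genes were the 7 signals, all other signals and their receptors, and in other lists those past both thresholds and up to 4 more by adjusted p. Alternatives were RLE and upper-quartile factors, leaving out the 10 most abundant genes, other filters, DESeq2 1.42.0, limma-voom (limma 3.58.1), a replicate block and leaving out each library. Counts per list without starvation replicate 3, and runs of upd2 without the filter, were chosen after seeing the data. Counts of 4 replicates were also simulated, with the same dispersion for every gene and with changes only in genes above 1 CPM. There, 67 of 67 genes changed 2.5-fold and 48 of 67 changed 1.5-fold were called among 12069 tested, and 5 unchanged genes were called. The data had unequal spread between genes and a starvation replicate 3 that stood apart, so these rates are not those of the data.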

Additional observations from a re-analysis of the deposited data

Results flagged for a closer look

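In 110 sets of 4 libraries (55 genes in each condition), 10 had a library far from the others, where chance gives 5.5. Among the 7 signals, upd2 was at 0.334 CPM in food replicate 4 against 0.0864 to 0.118 CPM in the other fed libraries, and egr was at 30.8 CPM in food replicate 2 against 26.4 to 27.0. Among the other genes, starvation replicate 3 stood out for NPF (39.7 CPM against 25.5 to 27.5), Stat92E (176 against 198 to 199.5) and Smox (117 against 147 to 151). Starvation replicate 4 stood out for gbb, at 16.1 CPM against 20.7 to 21.6. Food replicate 1 was apart for Lst (20.9 CPM against 17.6 to 17.99) and wit (75.2 against 79.6 to 80.0). Food replicate 2 was apart for conv (13.3 CPM against 11.1 to 11.3) and Sdr (53.9 against 49.3 to 49.9).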

How the results depend on the processing

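Of the 7 signals, CCHa2, Ilp6, ImpL2 and daw moved by less than the spread between replicates under all 16 alternatives. The value of fit also moved with limma-voom (-8.89). The signs of ImpL2, daw and upd2, whose values lay near 0, changed under some alternatives. The count of pathway genes higher at an adjusted p under 0.05 (10) was 23 with upper-quartile factors, 17 with DESeq2 and between 8 and 25 when single libraries were left out, highest without starvation replicate 3. Shares of all genes at that threshold are not given for upper-quartile factors, DESeq2 or a replicate block. They are not given for fits without a single library either, except without starvation replicate 3, where 15.9% of all genes were higher. Nothing is read from the counts that lack a share. The alternatives were run for the 7 signals and the 48 pathway genes chosen by the naming rule. Among these 48, each change of sign was in a gene that passed neither in the main test nor under that alternative. CCHa2-R took 0.0071 with DESeq2, 0.0072 with RLE factors, 0.0048 without a filter, 0.10 with upper-quartile factors and 0.0071 without the 10 most abundant genes. With upper-quartile factors Ilp3 was at 0.076, Med at 0.068, dome at 0.064, gbb at 0.062 and sun at 0.053, and with limma-voom Akh was at -0.079. When single libraries were left out, CCHa2-R ran from -0.083 to 0.076, Ilp3 from -0.24 to 0.083, Akh from -0.17 to 0.52, sun from -0.23 to 0.011, gbb from -0.11 to 0.062, dome from -0.11 to 0.075 and Med from -0.088 to 0.0015. Of 878 values in all for single genes, 19 lost and 35 gained a call.
Same-numbered samples correlated at 0.0395, 0.0846, 0.188 and 0.292 in their deviations. For food replicates 2, 3 and 4, but not for food replicate 1, the starvation library of the same number had the highest correlation. The main fit did not take the numbers as pairs, and whether they mark a shared batch was not tested. With a replicate block the pathway counts were 15 lower and 9 higher, against 14 and 10, and TotA passed at -2.49. The depth limits upd2, upd1, upd3 and Akh.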
